A study of Mus musculus with 24 samples.

Results

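Osteopontin, encoded by Spp1, and 3 chains of its cell-surface receptors, integrin β3 (Itgb3), integrin αv (Itgav) and CD44 (Cd44), were followed through 24 bulk RNA-seq libraries of mouse NK cells. The 4 genes were taken by symbol from a table of 38215 genes, where each had 1 entry. The set was chosen by measured values, since Spp1 and Itgb3 were among the strongest changes between IL-15-treated and naive cells, so the levels of all 4 genes in that contrast are given as a description with no test. The study set NK cells of KO mice, which lack FcRγ, the signalling adaptor encoded by Fcer1g, against NK cells of WT mice. The 6 groups of 4 libraries were IL-15-treated KO spleen, IL-15-treated WT spleen, tumour-bearing KO lung, tumour-bearing WT lung, naive KO spleen and naive WT spleen. Each group's 4 libraries are described as biological replicates. Nothing read here states strain, age, how the KO was made, how IL-15 was given, which tumour was used, or whether a library is 1 mouse, and p-values cover only the spread between the libraries as labelled. Lung and naive spleen differ in tissue and in tumour, and those differences cannot be told apart.

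Library totals ran from 9683372 to 32095380 expected counts, and 2 libraries were shallow: naive KO replicate 1 at 9683372 and WT lung replicate 1 at 9774683, with the next at 21183516. Fcer1g stood at 1.25 to 16.2 CPM (counts scaled to the library's TMM-adjusted total) in the KO libraries and at 253 to 795 CPM in the WT libraries, so it separated the 24 libraries by genotype. All 12 NK cell markers looked at were found in every group, with summed levels of 10668 and 11513 CPM in IL-15-treated KO and WT spleen, 15786 and 18075 CPM in KO and WT lung, and 20536 and 24235 CPM in naive KO and WT spleen. In bulk libraries such as these, fewer cells that carry a transcript and less of it per cell cannot be told apart.

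Osteopontin is a secreted phosphoprotein of mineralised matrix that is also made by activated lymphocytes and macrophages, where it acts as a cytokine. It binds the integrin αvβ3 and related integrins through an arginine-glycine-aspartate (RGD) motif, and integrins with α4 or α9 chains through a neighbouring stretch that thrombin cleavage exposes; CD44, the main hyaluronan receptor, is a further receptor. Integrin chains reach the surface as pairs of 1 α and 1 β chain: β3 pairs with αv in most cells and with αIIb in platelets, while αv can also pair with β1, β5, β6 and β8.

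The stretch of the Spp1 coding sequence that gives the integrin contact is shown because it is the feature by which the ligand and the αv integrins of this set meet. It covers 18 codons of a transcript on chromosome 5 (GENCODE M21 on GRCm38), reads 5′ to 3′, and has the RGD codons 144 to 146 of its 294-codon reading frame in capitals.
Spp1 coding: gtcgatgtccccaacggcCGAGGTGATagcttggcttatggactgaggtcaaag
Of the 7 annotated Spp1 transcripts, 6 held these codons in their longest reading frame. The counts are per gene, so they do not say which transcript was made.

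The Spp1 promoter is shown because Spp1 was the member with the widest range of levels. It is 1 of 2 promoters that RefSeq gives for Spp1 on GRCm38.p6, plus strand, chr5:104434861-104435140, from 250 bases before the start site to 30 bases after it.
Spp1 promoter: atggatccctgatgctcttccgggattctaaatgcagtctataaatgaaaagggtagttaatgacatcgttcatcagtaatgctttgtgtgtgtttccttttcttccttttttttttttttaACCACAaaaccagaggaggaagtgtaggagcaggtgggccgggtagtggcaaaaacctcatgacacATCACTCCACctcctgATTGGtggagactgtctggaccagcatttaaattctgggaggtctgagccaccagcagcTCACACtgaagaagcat
Capitals mark matches to short motifs on either strand, none of which overlap. ACCACA, the letters that RUNX factors bind, starts 128 bases before the start site and was found in 15.6% of 32851 RefSeq promoters cut to the same length. TCACAC, the core letters that T-box factors bind, starts at base 14 after the start site and was found in 13.6%. CCAAT was matched on the minus strand, printed as ATTGG, from 46 bases before the start site and was found in 36.1%. A sterol regulatory element, whose letters are the run of capitals that starts 62 bases before the start site with its sixth base left free, was searched for after the sequence and the genes with a similar profile had been seen. It was found in 0.216%, or 71 promoters. The STAT letters TTCNNNGAA (7.83% of promoters) and the AP-1 letters TGANTCA (7.46%) were not matched in this window. A match is a description of letters, and binding was not measured.

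Spp1 (ENSMUSG00000029304, chr5:104435118-104441050, plus strand, GRCm38) had the widest range of the 4 genes, scarce in naive NK cells and abundant after IL-15. The 4 libraries of IL-15-treated KO spleen held 366, 460, 387 and 475 CPM, and those of IL-15-treated WT spleen held 486, 611, 504 and 486 CPM. Naive KO spleen held 2.60, 2.5, 4.51 and 3.05 CPM, and naive WT spleen held 3.30, 4.57, 5.02 and 4.35 CPM. No IL-15 library came near a naive one; 24.4% of 13344 tested genes in KO and 27.3% in WT were likewise higher after IL-15 without overlap. Means were 422 ± 53.6 CPM against 3.17 ± 0.928 CPM in KO (± SD, n = 4 each) and 522 ± 59.9 CPM against 4.31 ± 0.728 CPM in WT. The fitted difference between IL-15 and naive was 6.96 ± 0.21 log2 units in KO (± standard error, a 125-fold difference) and 6.83 ± 0.20 in WT (114-fold). By size it was number 64 from the top of 13344 tested genes in KO and number 60 in WT.

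In tumour-bearing lung, Spp1 held 10.2, 16.7, 17.8 and 8.21 CPM in the KO libraries and 20.8, 11.4, 9.19 and 10.6 CPM in the WT libraries. The lung libraries of both genotypes lay above all naive spleen libraries and below all IL-15 libraries; 23.8% of 14275 genes in KO and 23.6% in WT were likewise higher in lung than in naive spleen without overlap. Against naive spleen the difference was 2.04 ± 0.25 log2 units in KO and 1.55 ± 0.25 in WT, given without a test because the naive libraries also chose the gene. In the order of group means, IL-15 WT came first, followed without overlap by IL-15 KO, by lung and by naive spleen, while the genotypes overlapped in lung and in naive spleen. The spread of Spp1 between replicates was wider in lung than after IL-15: its SD was 35.7% of the mean in KO lung and 40.7% in WT lung, against 12.7% in IL-15-treated KO spleen and 11.5% in IL-15-treated WT spleen.

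Macrophages are a known source of osteopontin, so 13 macrophage markers were summed in each group. Their sum was 82.2 to 238 CPM in KO lung and 43.5 to 80.1 CPM in WT lung, against 6.17 to 13.3 CPM in naive KO spleen and 5.79 to 9.21 CPM in naive WT spleen. Epithelial markers summed to 162 CPM in KO lung and 59.6 CPM in WT lung, against 28.6 CPM in naive KO spleen and 18.1 CPM in naive WT spleen. Endothelial markers summed to 35.4 CPM in KO lung and 50.8 CPM in WT lung, against no count in naive KO spleen and 0.217 CPM in naive WT spleen. In lung these 3 lists were thus higher together with Spp1, and their part in the lung Spp1 level was not tested. After IL-15 the sum was 20.6 to 27.6 CPM in KO and 18.9 to 23.8 CPM in WT, of which Cd68, a lysosomal protein gene, gave 24.0 and 20.1 CPM on average. The defining markers were at or near 0 there: Csf1r averaged 0.00771 CPM in IL-15-treated KO spleen and 0.0374 CPM in IL-15-treated WT spleen, and Marco, C1qc, Mertk and Vsig4 had no count in either. Of the 13 markers, 12 averaged under 1 CPM in both IL-15 groups.

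**Figure D1:**
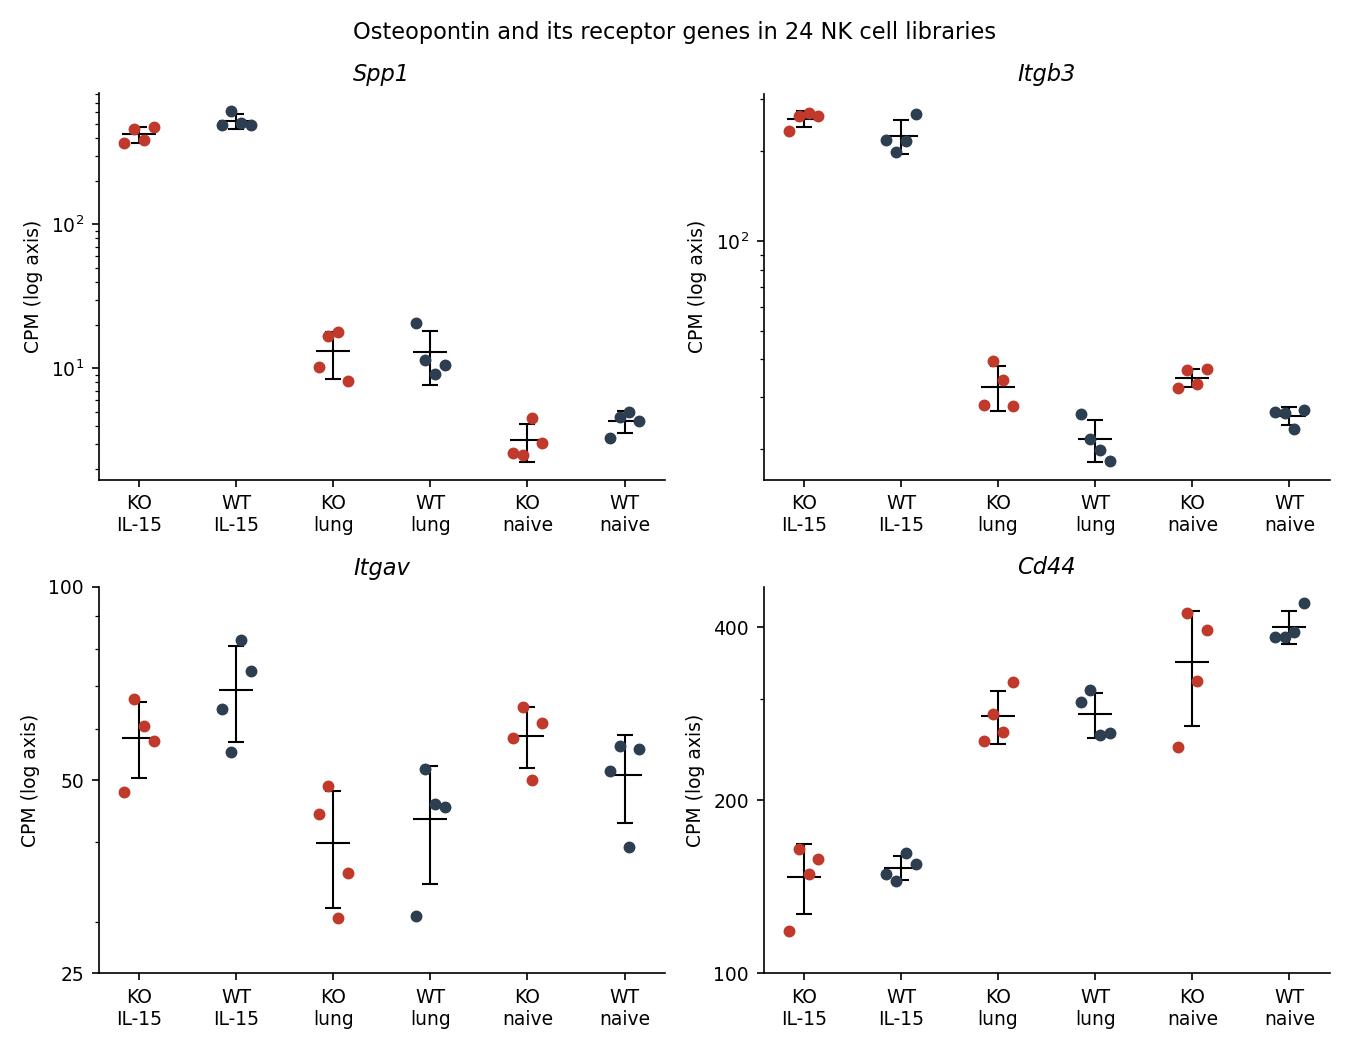
Levels of Spp1, Itgb3, Itgav and Cd44 in CPM (log axes) in each of the 4 libraries of the 6 groups; points are libraries, KO red and WT dark, horizontal marks are means and bars ± SD. Spp1 spans 2.5 to 611 CPM and Itgb3 is far above its other groups after IL-15, Itgav overlaps between neighbouring groups, and Cd44 is lowest after IL-15.

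Itgb3 (ENSMUSG00000020689, chr11:104608000-104670476, plus strand) was the receptor chain of the 3 that stood higher after IL-15 without overlap. It held 235, 263, 270 and 263 CPM in IL-15-treated KO spleen and 218, 200, 216 and 268 CPM in IL-15-treated WT spleen. Naive KO spleen held 32.2, 36.9, 33.1 and 37.0 CPM, and naive WT spleen held 26.7, 26.3, 23.3 and 27.1 CPM. Every IL-15 library was more than 5 times as high as every naive library. Of all 13344 tested genes, 24.4% in KO and 27.3% in WT were likewise higher after IL-15 without overlap. The fitted difference was 2.82 ± 0.11 log2 units in KO (7.05-fold) and 3.04 ± 0.11 in WT (8.21-fold), number 526 from the top of 13344 genes in KO and number 570 in WT.

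In lung, Itgb3 held 28.1, 39.6, 34.2 and 27.9 CPM in KO and 26.3, 21.7, 19.9 and 18.3 CPM in WT. These levels overlapped with those of naive spleen of the same genotype, with differences from naive of −0.10 ± 0.12 log2 units in KO and −0.27 ± 0.13 in WT. Outside IL-15 the groups were ordered by genotype: naive KO and KO lung overlapped with each other and lay above naive WT and WT lung, which also overlapped with each other.

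Platelets carry β3 paired with αIIb, so 10 platelet and megakaryocyte markers were summed. The sum was 0.987 to 2.11 CPM in IL-15-treated KO spleen and 0.626 to 1.34 CPM in IL-15-treated WT spleen, and Pf4 and Ppbp, which encode platelet chemokines, had no count in either group. In naive spleen the sum was 38.8 to 63.2 CPM in KO and 18.8 to 42.2 CPM in WT. Itga2b, which encodes αIIb, averaged 0.560 CPM in IL-15-treated KO spleen, 0.415 CPM in IL-15-treated WT spleen, 11.9 CPM in naive KO spleen and 5.98 CPM in naive WT spleen.

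Itgav (ENSMUSG00000027087, chr2:83724397-83806916, plus strand), the partner chain of β3, had closer levels in the 2 states. It held 48.0, 66.8, 60.7 and 57.6 CPM in IL-15-treated KO spleen and 64.4, 55.4, 82.8 and 74.1 CPM in IL-15-treated WT spleen. Naive KO spleen held 58.2, 65.0, 50.04 and 61.3 CPM, and naive WT spleen held 51.6, 56.6, 39.3 and 56.0 CPM. The IL-15 and naive libraries overlapped in both genotypes, with differences of −0.08 ± 0.14 log2 units in KO and 0.36 ± 0.14 in WT. On totals without TMM scaling, which shift every gene by 0.14 in KO and 0.21 in WT, the KO value would be 0.061 and the WT value 0.57. With the length and GC offset the WT difference was smaller than in the main fit, as given in the closing section.

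Itgav was lowest in lung, at 44.3, 48.9, 30.5 and 35.9 CPM in KO and 30.7, 52.1, 45.9 and 45.4 CPM in WT. In KO it fell below naive spleen by 0.56 ± 0.17 log2 units, with no overlap between the libraries (edgeR quasi-likelihood, adjusted p = 0.00913). In that comparison 42.4% of 14275 genes passed the same threshold of 0.05 and 15.4% were lower without overlap. In WT the difference of −0.22 ± 0.17 did not pass (adjusted p = 0.293), but with an offset that removes the trend of counts with exon length and GC content in each library it was −0.47 and passed (adjusted p = 0.00369). In the order of group means, every pair of neighbouring groups overlapped for Itgav.

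Levels of different genes can be set side by side only per length, so CPM were divided by the exon length over all transcripts of a gene, 5901 bases for Itgb3 and 10744 bases for Itgav. The transcripts made can be shorter, which was not measured, so ratios and orders between genes depend on this choice of length. Per kilobase, the transcript of β3 stood level with that of αv in naive cells and far above it after IL-15. The ratio of Itgb3 to Itgav was 8.91, 7.16, 8.09 and 8.33 in IL-15-treated KO spleen and 6.16, 6.56, 4.75 and 6.59 in IL-15-treated WT spleen. It was 1.15, 1.47, 2.04 and 1.42 in KO lung and 1.56, 0.758, 0.789 and 0.734 in WT lung. In naive spleen it was 1.01, 1.03, 1.2 and 1.10 in KO and 0.943, 0.848, 1.08 and 0.882 in WT. The KO and WT libraries did not overlap after IL-15, and overlapped in lung and in naive spleen. An exact two-sided permutation test of KO against WT gave p = 0.0286 after IL-15, the smallest that 4 against 4 libraries allow, p = 0.114 in lung and p = 0.0857 in naive spleen. Adjusted over these 3 tests the values were 0.0858, 0.114 and 0.114, none of which passed, and the ratio was looked at after the levels had been seen.

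**Figure D2:**
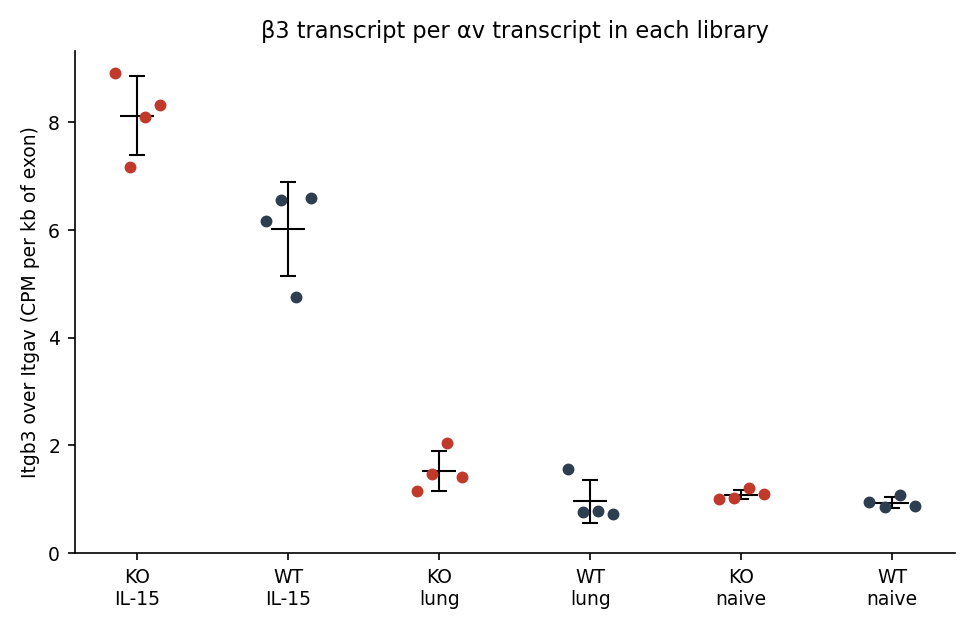
Ratio of Itgb3 to Itgav, both in CPM per kilobase of exon, in each library; points are libraries, horizontal marks means and bars ± SD. The ratio averaged 8.12 in IL-15-treated KO spleen and 6.02 in IL-15-treated WT spleen, and 0.939 to 1.52 in the other groups.

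Cd44 (ENSMUSG00000005087, chr2:102811141-102901665, minus strand) went the other way from Spp1 and Itgb3. It held 118, 164, 149 and 158 CPM in IL-15-treated KO spleen and 149, 145, 162 and 155 CPM in IL-15-treated WT spleen. Naive KO spleen held 248, 424, 323 and 396 CPM, and naive WT spleen held 384, 385, 393 and 440 CPM. All IL-15 libraries lay below all naive libraries; 16.0% of 13344 genes in KO and 20.8% in WT were likewise lower without overlap. The difference was −1.31 ± 0.14 log2 units in KO and −1.48 ± 0.14 in WT, so the transcript was 2.48-fold and 2.79-fold lower after IL-15.

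In lung, Cd44 held 254, 283, 263 and 321 CPM in KO and 297, 311, 260 and 262 CPM in WT. In WT it fell below naive spleen by 0.51 ± 0.13 log2 units without overlap (adjusted p = 0.00255), where 49.2% of 14275 genes passed and 16.7% were lower without overlap. In KO the difference was −0.31 ± 0.13, the libraries overlapped, and it did not pass (adjusted p = 0.0578). Naive KO replicate 1, a shallow library, had the lowest naive level at 248 CPM, and without that library the KO difference was −0.44 and passed (adjusted p = 0.00373). Without KO lung replicate 4 it was −0.38 and also passed (adjusted p = 0.0360), and with DESeq2 it was −0.32 (adjusted p = 0.0348). In the order of group means, naive WT, naive KO, WT lung and KO lung each overlapped with the next, and both IL-15 groups lay apart below them. Per kilobase of exon, Spp1 stood at 11.8 ± 0.919 times Cd44 in IL-15-treated KO spleen and 14.1 ± 2.17 times in IL-15-treated WT spleen, against 0.0391 ± 0.0145 in naive KO spleen and 0.0443 ± 0.00778 in naive WT spleen.

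The loss of FcRγ was compared within each state, a contrast that did not choose the genes. Itgb3 was the 1 member of 4 that passed in any of the 3 states. In naive spleen it was higher in KO than in WT without overlap, 34.8 ± 2.52 against 25.9 ± 1.74 CPM, and the KO effect was 0.40 ± 0.11 log2 units (1.32-fold, adjusted p = 0.0125). In that state 20.3% of 13344 genes passed, 11.1% in the same direction, and 10.4% were higher without overlap, so 1 of 4 members is near the background. The call ended with the length and GC offset, where the KO effect was 0.26 (adjusted p = 0.0957), and in the other alternatives it passed. The platelet marker sum averaged 47.6 ± 10.7 CPM in naive KO spleen against 32.1 ± 10.99 CPM in naive WT spleen (exact two-sided permutation p = 0.0857, adjusted 0.212 over 42 tests). In 5 of the 14 marker lists the naive KO and WT sums stood apart at an exact p of 0.0286 (adjusted 0.12): T cells at 60.4 against 29.9 CPM, B and plasma cells at 13.4 against 6.21 CPM, dendritic cells at 829 against 629 CPM, mast cells and basophils at 184 against 101 CPM, and NK cells at 20536 against 24235 CPM. Of the T cell sums, Cd3d gave 33.9 CPM in KO and 17.9 CPM in WT, and Cd3g gave 15.7 and 7.39 CPM. Cd4, Cd8a and Cd8b1 averaged under 1 CPM in both naive groups. Of the dendritic cell sums, Itgax, also listed here as an osteopontin receptor chain, gave 824 CPM in KO and 625 CPM in WT. Among the 6 mast cell and basophil markers, 5 averaged under 1 CPM in both naive groups. Mitochondrial genes took 1.18 to 9.28% of counts in naive KO spleen against 4.89 to 6.31% in naive WT spleen. The part of these in the Itgb3 difference was not tested.

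Itgb3 stood higher in KO in the other states as well. In lung the levels were 32.4 ± 5.59 against 21.5 ± 3.47 CPM, again without overlap, and the KO effect of 0.60 ± 0.16 log2 units did not pass (adjusted p = 0.149, unadjusted p = 0.00229). In lung 0.625% of 13129 genes passed and 4.21% were higher in KO without overlap. Leaving out WT lung replicate 1, the shallow library with the highest WT level, gave 0.70 and a call (adjusted p = 0.00979). Fitting all 24 libraries (0.60, adjusted p = 0.0135) and DESeq2 (0.60, adjusted p = 0.0338) also gave one. After IL-15 the levels overlapped, 258 ± 15.6 against 225 ± 29.6 CPM, with an effect of 0.18 ± 0.10 (adjusted p = 1). The macrophage marker sum was also higher in KO lung, 141 ± 69.7 against 66.2 ± 16.9 CPM (exact two-sided permutation p = 0.0286, adjusted 0.12 over 42 tests). The same p values held in lung for T cells at 33.1 against 17.7 CPM, mast cells and basophils at 64.7 against 39.7 CPM, and type 1 innate lymphoid cells at 98.5 against 49.0 CPM. Of the T cell sums, Cd3d gave 12.1 CPM in KO lung and 8.11 CPM in WT lung, and Cd3g gave 9.27 and 3.94 CPM. Cd8a averaged 1.41 and 0.535 CPM, and Cd4 0.712 and 0.234 CPM. Among the 6 mast cell and basophil markers, 5 averaged under 1 CPM in both lung groups. Mitochondrial genes took 8.49 to 10.7% of counts in KO lung against 3.17 to 6.14% in WT lung, without overlap. The part of these in the Itgb3 difference was not tested.

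Spp1 stood lower in KO in both spleen states and did not pass in any. After IL-15 the KO libraries, at 366 to 475 CPM, all lay below the WT libraries, at 486 to 611 CPM, and the KO effect was −0.32 ± 0.16 log2 units (adjusted p = 1, unadjusted p = 0.0545). In that state 0.135% of genes passed and 1.00% were lower in KO without overlap. In naive spleen the libraries overlapped at 3.17 ± 0.928 against 4.31 ± 0.728 CPM, with an effect of −0.45 ± 0.19 (adjusted p = 0.102). That value depended on single libraries: it passed without naive KO replicate 3 (−0.69, adjusted p = 0.0129) and without naive WT replicate 1 (−0.56, adjusted p = 0.0484), and it was −0.07 with the length and GC offset (adjusted p = 0.799). In lung the effect was 0.05 ± 0.30 (adjusted p = 0.968).

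Itgav and Cd44 did not pass between genotypes in any state. The KO effect on Itgav was −0.26 ± 0.14 log2 units after IL-15, −0.13 ± 0.18 in lung and 0.18 ± 0.14 in naive spleen, and that on Cd44 was −0.06 ± 0.14, −0.01 ± 0.11 and −0.23 ± 0.14 in the same states. With the length and GC offset the naive value of Itgav was −0.07. Adjusted p values ran from 0.266 to 1.

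Whether the KO effect differed between states was tested as an interaction, in the same libraries as the contrast that chose the genes. For IL-15 against naive spleen the differences of the KO effect were 0.13 ± 0.24 log2 units for Spp1, −0.22 ± 0.15 for Itgb3, −0.44 ± 0.20 for Itgav and 0.17 ± 0.20 for Cd44, with adjusted p values from 0.287 (Itgav) to 0.845 (Spp1). With the length and GC offset the value for Spp1 was −0.16. For lung against naive spleen they ran from −0.34 ± 0.24 for Itgav to 0.49 ± 0.35 for Spp1, with adjusted p values from 0.541 to 0.705. None of the 4 genes passed, where 1.54% of 13344 genes and 1.15% of 14275 genes did.

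**Figure D3:**
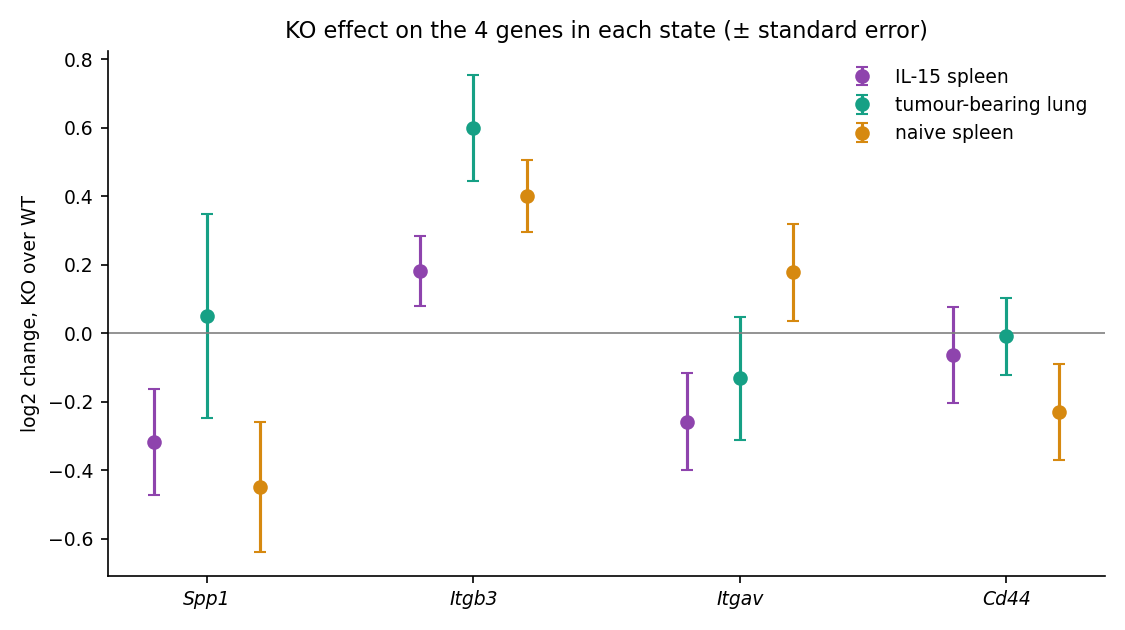
Log2 change of KO over WT for the 4 genes after IL-15, in tumour-bearing lung and in naive spleen, from edgeR; bars are ± 1 standard error. Itgb3 lies above 0 in all 3 states, at 0.18, 0.60 and 0.40, and passed the threshold in naive spleen alone.

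Of 9 other listed chains that can receive osteopontin, 6 were tested in spleen, and after IL-15 all 6 fell in KO while 4 fell and 2 did not pass in WT. The median change was −1.08 log2 units in KO and −0.758 in WT, against −0.00685 and −0.0117 over all 13344 genes, of which 41.7% passed in KO and 52.4% in WT, and 21.0% fell in KO and 26.0% in WT. Itgb7, the β7 chain of gut-homing integrins, fell by 2.11 ± 0.13 in KO (191 ± 11.02 against 787 ± 116 CPM, adjusted p = 1.99e-10) and by 1.98 ± 0.13 in WT (156 ± 13.9 against 582 ± 85.8 CPM, adjusted p = 3.96e-10). Itga4, the α4 chain, which pairs with β1 or β7, fell by 2.12 ± 0.29 in KO and by 1.80 ± 0.29 in WT. Itgb1, the β1 chain, fell by 0.89 ± 0.12 in KO and by 0.74 ± 0.12 in WT. Itgax, the αX chain, fell by 0.92 ± 0.13 in KO and by 0.53 ± 0.13 in WT. Itgb5, another partner of αv, fell in KO by 1.24 ± 0.38 (adjusted p = 0.0130) and was at −0.78 ± 0.37 in WT (adjusted p = 0.0896). Itga5, the fibronectin receptor chain, fell in KO by 0.46 ± 0.16 (adjusted p = 0.0287) and was at 0.31 ± 0.16 in WT (adjusted p = 0.12). Without the 2 shallow libraries 5 fell in KO and 5 in WT. The genotype by IL-15 interaction passed for none of these 6 chains, where 1.54% of 13344 genes passed.

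**Figure D4:**
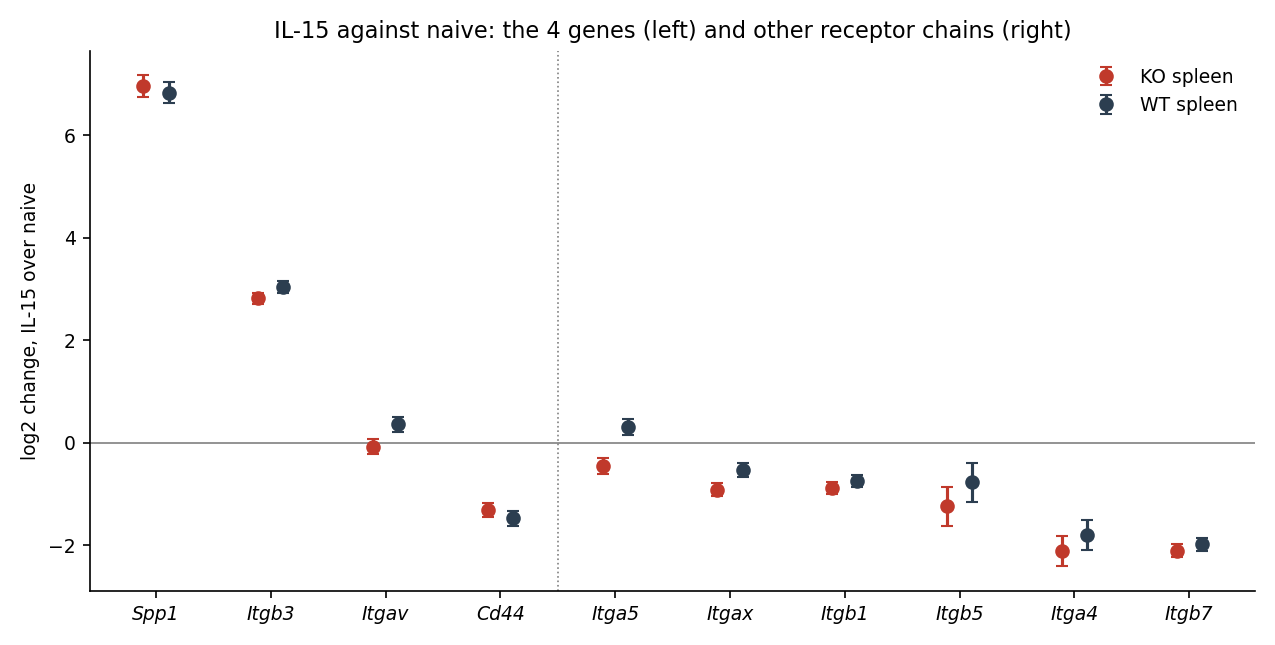
Log2 change of IL-15 over naive spleen for the 4 genes, left of the dotted line, and for 6 further chains of osteopontin receptors, in KO and WT; bars are ± 1 standard error. Spp1 and Itgb3 stand above 0, Itgav near it, and Cd44 below it together with most of the further chains.

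Per kilobase of exon over all transcripts, these changes altered the order of the chains. For Cd44 that length, 6776 bases, covers 9 transcripts, and its place in the order depends on which were made. Itgb1 led these chains in every group, at 196 and 226 CPM per kilobase in IL-15-treated KO and WT spleen, 229 and 234 in KO and WT lung, and 345 and 355 in naive KO and WT spleen. Itgb3 stood at 43.7 ± 2.65 CPM per kilobase in IL-15-treated KO spleen and 38.2 ± 5.02 in IL-15-treated WT spleen, against 5.89 ± 0.426 in naive KO spleen and 4.38 ± 0.295 in naive WT spleen. After IL-15 it was above Itga4, at 22.3 in KO and 19.7 in WT, and above Cd44, at 21.7 in KO and 22.5 in WT. In naive spleen it was below both, with Itga4 at 91.9 in KO and 64.2 in WT and Cd44 at 51.4 in KO and 59.1 in WT. Itgb5 stood at 0.954 to 2.19 over the groups, and Itgb6, Itga8 and Itga9 averaged under 1 CPM in every group.

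**Figure D5:**
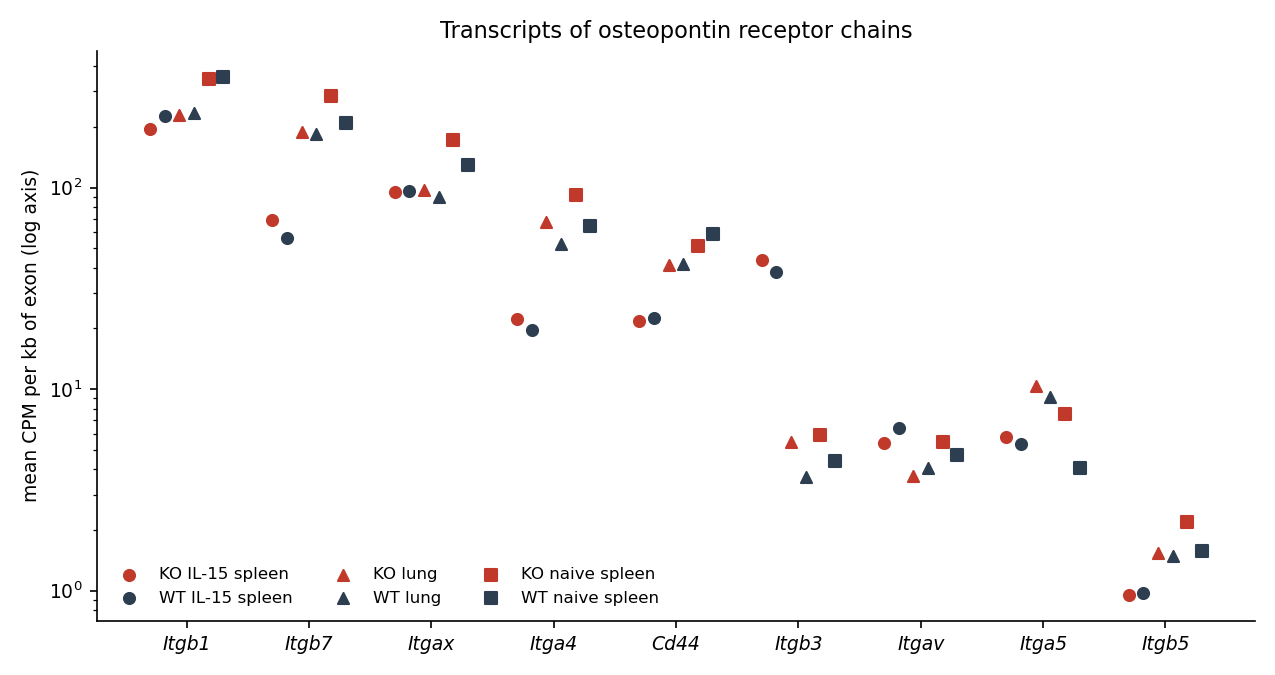
Mean levels of 9 osteopontin receptor chains per group, in CPM per kilobase of exon (log axis); circles are IL-15-treated spleen, triangles lung and squares naive spleen, with KO red and WT dark. Itgb3 is highest in the IL-15 groups, at 43.7 in KO and 38.2 in WT, and Itgb7 and Itga4 are lowest there.

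Between genotypes in naive spleen, 2 of the 6 further chains were higher in KO and none lower, where 11.1% of all 13344 genes were higher, with a median KO effect of 0.413 log2 units against −0.000699 over all genes. Itga5 rose by 0.86 ± 0.16 in KO (37.2 ± 3.51 against 20.03 ± 5.30 CPM, adjusted p = 0.00158) and Itgb7 by 0.41 ± 0.12 (787 ± 116 against 582 ± 85.8 CPM, adjusted p = 0.0238). With the length and GC offset Itga5 passed (0.63, adjusted p = 0.00921) and Itgb7 did not (0.24, adjusted p = 0.105), and without the 2 shallow libraries Itgb7 did not pass either (0.32, adjusted p = 0.0684). None of the further chains passed between genotypes after IL-15, where 6 were tested, or in lung, where 7 were. Over all genes 0.135% passed after IL-15 and 0.625% in lung.

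In lung against naive spleen, 2 of 7 further chains rose and 3 fell in KO, and 2 rose and 2 fell in WT, where 42.4% of all genes passed in KO and 49.2% in WT. Itga5 rose by 0.46 ± 0.16 in KO and by 1.17 ± 0.16 in WT. Itgb1 fell by 0.59 ± 0.12 in KO and by 0.60 ± 0.12 in WT, and Itgax by 0.81 ± 0.13 in KO and by 0.53 ± 0.13 in WT. Itgb7 fell in KO by 0.60 ± 0.12 (adjusted p = 0.000208) and was at −0.19 ± 0.12 in WT (adjusted p = 0.189), and the difference between the genotypes did not pass (−0.41 ± 0.16, adjusted p = 0.229).

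The 4 relatives of Spp1 in the small integrin-binding glycoprotein family of bone and tooth, Ibsp, Dmp1, Dspp and Mepe, were at or near 0: Ibsp and Mepe had no count in any library, and Dmp1 and Dspp had 2 counts each over all libraries. None could be tested. Among 15 genes for enzymes that cleave, crosslink or dephosphorylate osteopontin, 6 were tested in spleen, and after IL-15, 2 rose and 2 fell in KO and 2 rose and 1 fell in WT, where 41.7% of all genes passed in KO and 52.4% in WT. Acp5, which encodes the tartrate-resistant acid phosphatase that removes phosphates from osteopontin, fell by 3.42 ± 0.18 log2 units in KO (10.8 ± 0.578 against 111 ± 14.2 CPM, adjusted p = 2.59e-11) and by 3.54 ± 0.18 in WT (8.20 ± 0.995 against 90.1 ± 25.1 CPM, adjusted p = 1.88e-11). Tgm2, a transglutaminase that crosslinks proteins, rose by 2.37 ± 0.26 in KO (20.5 ± 0.496 against 3.86 ± 1.34 CPM) and by 1.95 ± 0.26 in WT (9.04 ± 1.61 against 2.21 ± 0.699 CPM). Plau, the urokinase gene, averaged 1.46 CPM in IL-15-treated KO spleen and 1.76 CPM in IL-15-treated WT spleen, and was listed at 0 in all 4 naive KO libraries and in 3 of 4 naive WT libraries. Between genotypes in naive spleen Tgm2 rose by 0.75 ± 0.26 in KO (adjusted p = 0.0481), a call that ended both with the length and GC offset and without the 2 shallow libraries.

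Other ligands of β3 integrins did not move as a block with IL-15. Of 8 tested in spleen, 2 rose and 4 fell with IL-15 in KO, and 2 rose and 1 fell in WT, against 41.7% and 52.4% of all genes that passed. In WT 3 fell with the length and GC offset. Lgals3, the galectin-3 gene, rose by 2.56 ± 0.18 in KO (95.7 ± 9.25 against 15.3 ± 2.00 CPM) and by 2.43 ± 0.17 in WT (96.2 ± 11.8 against 16.9 ± 4.26 CPM). Vwf, the von Willebrand factor gene of platelets and endothelium, fell, to 0.0451 ± 0.0703 CPM against 5.13 ± 1.82 CPM in KO and to 0.00749 ± 0.0150 CPM against 1.97 ± 2.89 CPM in WT, together with the platelet markers described above. In naive WT spleen it had no count in 2 of 4 libraries and reached 6.13 CPM in another. In naive spleen Pecam1, an adhesion molecule of platelets, endothelium and leukocytes, rose by 0.69 ± 0.12 in KO (adjusted p = 0.000693), and Thbs1, the thrombospondin-1 gene, by 1.36 ± 0.37 (6.98 ± 3.76 against 2.62 ± 1.18 CPM, adjusted p = 0.0160). Thbs1 did not pass without the 2 shallow libraries (0.95, adjusted p = 0.0536). In lung against naive spleen 9 of these ligands were tested. Of them 5 rose and 2 fell in KO, and 6 rose and 0 fell in WT. Over all genes 42.4% passed in KO and 49.2% in WT. The median change was 1.25 log2 units in KO and 1.28 in WT, against 0.0491 and 0.078 over all genes.

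Of 11 tested genes that act with CD44, bind hyaluronan or splice Cd44, 2 rose and 4 fell with IL-15 in KO, and 1 rose and 6 fell in WT, where 41.7% of all genes passed in KO and 52.4% in WT. Hmmr, a hyaluronan-binding protein of the mitotic spindle, rose by 4.95 ± 0.40 in KO (72.6 ± 7.21 against 2.52 ± 2.16 CPM) and by 4.97 ± 0.39 in WT (73.3 ± 19.0 against 2.19 ± 0.831 CPM). Msn, the moesin gene, whose protein links CD44 to actin, fell by 0.63 ± 0.12 in KO and by 0.63 ± 0.12 in WT. Srgn, the serglycin gene, whose product is a CD44 ligand and granule proteoglycan, fell in WT by 0.74 ± 0.13 (adjusted p = 0.000141). The genotype by IL-15 interaction passed for none of the 11 genes, where 1.54% of all genes passed. None of the 11 passed between genotypes in naive spleen or after IL-15, nor did any of 12 in lung. Over all genes 20.3% passed in naive spleen, 0.135% after IL-15 and 0.625% in lung. In naive spleen 1 was called higher in KO with the length and GC offset, Cd74, whose product is the MHC class II invariant chain and a partner of CD44, at 0.89 (adjusted p = 0.0345), and 1 without the 2 shallow libraries, Ezr, the ezrin gene, at 0.36 (adjusted p = 0.0472).

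Of 28 tested genes that switch integrins on or signal from them, 1 rose and 12 fell after IL-15 in KO and 2 rose and 11 fell in WT. Over all genes 41.7% passed in KO and 52.4% in WT, so the share called in either direction is near the background. Falls took a larger share of the list than of all genes, of which 21.0% fell in KO and 26.0% in WT. With the length and GC offset 12 fell in KO and 14 in WT. The list had median changes of −0.299 log2 units in KO and −0.300 in WT, against −0.00685 and −0.0117 over all genes. Rasgrp2, the exchange factor that activates RAP1, fell by 2.29 ± 0.14 in KO (20.8 ± 4.07 against 96.7 ± 4.25 CPM) and by 2.65 ± 0.14 in WT (19.3 ± 1.79 against 114 ± 14.8 CPM). Rap1b, a RAP1 GTPase, fell by 1.42 ± 0.13 in KO and by 1.73 ± 0.13 in WT. Vcl, the vinculin gene, fell by 1.78 ± 0.16 in KO, and Itgb1bp1, which encodes a β1 tail-binding protein, by 1.17 ± 0.13 in WT. Each of these 2 is given for the genotype where its adjusted p was among the 3 smallest. The genotype by IL-15 interaction passed for 1 of the 28 genes, Tln1, described below, where 1.54% of 13344 genes passed.

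Between genotypes in naive spleen, 4 of these 28 genes rose and 4 fell in KO, where 20.3% of all genes passed. Tln1, the talin gene, whose protein binds β tails to activate integrins, rose by 1.99 ± 0.25 log2 units in KO (960 ± 230 against 237 ± 98.2 CPM, adjusted p = 6.75e-05). The KO effect on Tln1 was smaller by 1.87 ± 0.35 after IL-15 (adjusted p = 0.0108) and by 1.84 ± 0.33 in lung (adjusted p = 0.00708) than in naive spleen. With the length and GC offset the naive effect was 1.49 (adjusted p = 5.43e-05). Syk, a kinase downstream of integrins and ITAMs, rose by 0.70 ± 0.14 (adjusted p = 0.00266), and was at 0.30 with the offset (adjusted p = 0.0478). Itgb1bp1 fell by 0.74 ± 0.13 in KO.

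All 11 transcription factor genes linked to Spp1 were tested, and after IL-15, 3 rose and 3 fell in KO, and 2 rose and 3 fell in WT, where 41.7% of all genes passed in KO and 52.4% in WT. Tbx21, the T-bet gene, which is reported to act on Spp1 in T cells, fell by 2.31 ± 0.14 in KO (135 ± 16.1 against 641 ± 134 CPM) and by 2.54 ± 0.14 in WT (119 ± 9.14 against 651 ± 66.6 CPM), in the libraries where Spp1 was highest. Myb rose by 1.2 ± 0.15 in KO and by 1.64 ± 0.15 in WT, and Ets1 fell by 0.89 ± 0.12 in KO and by 0.58 ± 0.12 in WT. In naive spleen Stat5a, a STAT that acts downstream of IL-15, rose by 0.45 in KO and Ets1 by 0.44, and with the length and GC offset neither passed, at 0.08 for Stat5a and 0.26 for Ets1. In lung against naive spleen Runx3, Runx2 and Myb rose in both genotypes, with Runx3 at 0.88 ± 0.11 in KO and 1.08 ± 0.11 in WT.

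The genes whose levels most resembled each member were ranked by Pearson correlation of log2 CPM over the 24 libraries, which share tissue and treatment within groups, and carry no test. For Spp1 they were Sqle (0.984), Gapdh (0.979), Cit (0.978), Cenpa (0.977) and Cyp51 (0.976), a set with genes of sterol synthesis, glycolysis and mitosis. Sqle, which encodes squalene epoxidase, averaged 71.2 CPM in IL-15-treated KO spleen and 70.8 CPM in IL-15-treated WT spleen, 2.96 CPM in KO lung and 3.30 CPM in WT lung, and 1.09 CPM in naive KO spleen and 1.59 CPM in naive WT spleen. For Itgb3 they included Ckap2 (0.981), Ncapg2 (0.98), Gpi1 (0.98) and Aldoc (0.979). For Itgav the likeness was looser, led by Hook3 (0.873) and Tmem194 (0.852), and for Cd44 they were led by Hsd11b1 (0.977). By Spearman correlation 1 of the 5 genes closest by Pearson stayed among the top 5 for Spp1, none for Itgb3, 3 for Itgav and none for Cd44. The sterol regulatory element letters were in 1 of the 2 RefSeq promoters of Spp1, the one shown, and in none of the promoters of Gapdh, Cit, Cenpa and Cyp51; the promoter of Sqle was not analysed here.

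The members lie on 3 chromosomes, with Itgav and Cd44 both on chromosome 2. Within 250 kilobases Spp1 has 6 coding neighbours, Itgb3 4, Itgav 10 and Cd44 4, of which 2, 3, 2 and 2 were tested in spleen. Pkd2, the polycystin-2 gene beside Spp1, rose with IL-15 by 2.66 ± 0.51 log2 units in KO (7.62 against 1.07 CPM, adjusted p = 0.000394) and by 1.94 ± 0.49 in WT (8.84 against 2.16 CPM, adjusted p = 0.00254). Cdc27, a cell cycle gene near Itgb3, rose by 0.76 ± 0.18 in KO and by 0.95 ± 0.18 in WT. The other 7 tested neighbours did not pass with IL-15 in either genotype. Over all 13344 genes 41.7% passed in KO and 52.4% in WT.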

How the data were processed

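Poly(A) RNA of 24 mouse NK cell libraries was sequenced with a directional kit, per the labels' protocols. The authors deposited expected counts per gene; cutadapt 1.9, STAR 2.5.2a, RSEM 1.2.30 and GRCm38 are named in the submitters' processing notes, with no order, settings or annotation release. Since 5.47% of these expected counts had decimals, all were rounded. RSEM shares out reads that fit several genes, and whether strand was used in counting is not given. No per-sample column was left unused.

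Genotype, naive or IL-15-treated state and replicate number came from the titles. The titles name neither tissue nor tumour, and the library names of the lung groups begin with tumorNK. edgeR 4.0.16 in R 4.3.3 (filterByExpr, TMM, quasi-likelihood F test) was fitted to the 16 spleen libraries, to the 8 lung libraries, and to all 24 for lung against spleen, with Benjamini-Hochberg adjustment over all tested genes and a threshold of 0.05. Each standard error was computed from the log2 change and the F statistic, as their ratio after taking the root of F. CPM use TMM-scaled totals, and log2 CPM for correlations a prior count of 2. GENCODE M21 gave exon length and GC content for 98.5% of tested genes. Replicates with identical values were looked for and none found. The test was tried on simulated data.

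The members, 7 gene lists and 14 marker lists were chosen with earlier results of these data known. Genes named were the members, Fcer1g, up to 3 per list and comparison by smallest adjusted p among those that passed, macrophage and platelet markers, and the 5 genes most like each member; further receptor chains and tested neighbours were named after their values were seen, and not every gene the rule gives is reported here. The alternatives tried were a DESeq2 1.42.0 fit, edgeR with DESeq2 size factors, no filter, at least 1 CPM in 4 libraries, all 24 libraries or only the compared groups, a replicate block, a length and GC offset, and leaving out the 2 shallow libraries or each library in turn. For the lists, the offset and the removal of shallow libraries were added after the data were seen. Depth, at 9683372 to 32095380 counts a library, limits precision mainly for Spp1, for which a naive library held 27 to 132 counts.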

Additional observations from a re-analysis of the deposited data

Results flagged for a closer look

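In 24 sets of 4 libraries (4 genes in 6 groups), a library standing apart from the other 3 was looked for, and chance alone would mark about 1 in 20 such sets. Spp1 was highest in replicate 2 of IL-15-treated WT spleen, at 610.695 CPM, where the gap to the next library was 0.86 of the range of the group. Cd44 was highest in replicate 4 of naive WT spleen, at 440.271 CPM, with a gap of 0.839 of the range.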

How the results depend on the processing

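Of 640 values of the members under alternatives, over 36 results, 608 kept their direction and side of the threshold or, where untested, moved by less than 1 SD between replicates. Exceptions for KO against WT are these. With the length and GC offset Itgb3 in naive spleen was 0.26, Itgav in naive spleen −0.071 and the genotype by IL-15 value of Spp1 −0.16. Itgb3 in lung was called at 0.70 without the 2 shallow libraries, 0.60 with all 24 fitted and 0.60 with DESeq2, and ran from 0.49 to 0.70 with each library left out. Leaving out single libraries gave −0.69 to −0.33 for Spp1 in naive spleen, −0.13 to 0.34 for Spp1 in lung, −0.12 to 0.027 for Cd44 after IL-15 and −0.081 to 0.040 for Cd44 in lung, which was 0.011 without the shallow libraries.

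For lung against naive spleen, Cd44 in KO was called with DESeq2 size factors in edgeR (−0.32), the stricter filter (−0.32), DESeq2 (−0.32) and without the shallow libraries (−0.44), and ran from −0.44 to −0.20 with each library left out. With the length and GC offset Itgav in WT was −0.47 and called, and Spp1 in WT was 2.05. Totals without TMM scaling shift every gene by 0.21 for IL-15 in WT, 0.14 for IL-15 in KO and −0.10 for lung in KO, and by less than 0.1 elsewhere, which turns the sign of Itgav with IL-15 in KO. Under IL-15 in WT the offset gave 7.20 for Spp1 and 0.0074 for Itgav, and fitting all 24 libraries gave −1.39 for Cd44.

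Counts of genes called moved by over 1.5 times in these cases: in lung 129 without a filter, 126 with the offset, 448 without the shallow libraries, 314 with DESeq2 and 41 to 448 with each library left out, against 82; after IL-15 30 with DESeq2, against 18; genotype by IL-15 368 with all 24, 692 with DESeq2 and 83 to 714, against 205; genotype by tissue 506 without the shallow libraries, 71 with the compared groups alone, 520 with DESeq2 and 72 to 570, against 164; naive spleen 1697 to 2729, against 2705. The dendritic cell marker difference after IL-15 was 3.16 CPM on unscaled totals, with the opposite sign to TMM scaling. The causes were not tested beyond what each alternative changes.

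Same-numbered libraries did not deviate together (correlations of their deviations from −0.19 to 0.247), so the replicate numbers were not taken as pairs. With the replicate block, Itgb3 in naive spleen was 0.40 (adjusted p = 0.0134), Cd44 in lung against naive KO spleen was −0.30 and passed (adjusted p = 0.0479), and 2458 genes were called in naive spleen. Depth limits Spp1 in naive libraries, at 27 to 132 counts each.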
